A study of Mus musculus with 36 samples.

Results

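Lung tumours driven by variant 3 of the EML4-ALK fusion were compared with tumours driven by variant 1, in both cases with the control guide sgNeo and therefore with Setd2 intact. The comparison held 18 of the 36 tumours of the series. Variant 3 Neo had 9 tumours under the title codes CE428, CE429 and CE433, and Variant 1 Neo had 9 tumours under CE467, CE468 and CE472, with 3 tumours for each code. In both groups the neoplastic cells had been sorted from mouse lung tissue by their EGFP signal, so what the groups share is an EML4-ALK fusion, the EGFP signal and the control guide. The other 18 tumours carried the same fusions with a guide against Setd2 (sgSetd2), under 6 further codes, and served here as a separate pair of groups for the same variant difference. How the fusion was introduced, the strain, the age of the animals and what a code stands for were not given in the sources used here. Members were chosen by the labels alone.

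EML4-ALK joins the microtubule-associated protein EML4 to the kinase domain of the receptor tyrosine kinase ALK, and the trimerization domain of EML4 lets the kinase signal without ligand. Variants differ in how much of EML4 they keep. The longer variant 1 retains part of the folded propeller domain of EML4, while the short variant 3 lacks it and associates with microtubules. In the lung the fusion is known as a driver of adenocarcinoma, a tumour whose cells often resemble the surfactant-producing alveolar type 2 (AT2) cell.

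The code was the replicate (n = 3 per group), each the sum of the raw read counts of its 3 tumours. Levels are given as CPM, the read count scaled to a common library size, and differences as log2 fold changes, Variant 3 minus Variant 1, with standard errors (SE) and adjusted p-values from edgeR's quasi-likelihood test over 20009 genes. Variant 1 Neo tumours held a median of 26.9 M counts (lowest 17.9 M, highest 77.1 M) and Variant 3 Neo tumours a median of 39.1 M (lowest 27.3 M, highest 137.2 M). All 18 tumours expressed the epithelial and AT2 markers Epcam, Cdh1, Sftpc, Sftpb, Nkx2-1 and Lamp3. The T cell marker Cd3e and the endothelial marker Kdr had no count in any of them, and the leukocyte marker Ptprc reached at most 3.2 CPM. The endothelial markers Pecam1 and Cdh5 reached at most 3.57 and 0.171 CPM. The macrophage marker Cd68 was counted in all 18 tumours, up to 12.7 CPM. Mertk, Marco, Csf1r and Adgre1, also of macrophages, reached at most 6.97, 2.1, 1.77 and 1.57 CPM. The mesothelial marker Msln reached 22.9 CPM in Variant 1 and 1.11 CPM in Variant 3. The fibroblast collagen Col1a1 stood at 105 CPM in tumour 1 of CE467 and at 11.4 CPM in tumour 4 of CE468, both Variant 1, and at no more than 4.88 CPM in Variant 3. The fibroblast marker Dcn reached 82.1 CPM in Variant 1 and 31.5 CPM in Variant 3. By Ddx3y, a Y-linked gene, 0 of 3 Variant 1 Neo codes and 2 of 3 Variant 3 Neo codes (CE429 and CE433) were male. Variant and sex are therefore partly confounded.

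Asns was the single gene that passed the test, 0.005% of those tested. It encodes asparagine synthetase, which makes asparagine from aspartate and glutamine and is a classical target of ATF4, the transcription factor of the amino acid stress response. Asns (ENSMUSG00000029752.12, chromosome 6, 7675169 to 7693254 in GRCm38) stood at 58.7 CPM in CE467, 53.7 in CE468 and 43.2 in CE472. In Variant 3, CE428 had 15.2 CPM, CE429 had 16 CPM and CE433 had 14.6 CPM. The 3 Variant 3 codes lay close together and far below every Variant 1 code. The mean of Asns fell from 51.9 to 15.3 CPM, or by 1.76 on the log2 scale (SE of 0.17, adjusted p = 0.0071). By tumour, Variant 1 ran from 25.6 to 90 CPM. Of the 9 Variant 3 tumours, 8 stood between 12.8 and 18.7 CPM and tumour 1 of CE429 at 34.6 CPM, which lies above the lowest Variant 1 tumour (tumour 2 of CE472), so the tumours overlapped at this single point. Ddx3y was at most 0.0383 CPM in the tumours of CE428, against a threshold of 50 CPM for a male code, and the part of sex in the Asns value was not tested beyond the fit with sex as a covariate. An exact two-sided permutation test over the codes gave p = 0.1, the smallest that 3 against 3 allows. Any gene with separated codes gives this value, 6.83% of genes above and 8.21% below, so it is no further support for Asns.

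The size of the Asns difference was nearly constant over 36 alternative settings, from -1.92 to -1.58, but its adjusted p was not. It passed in 26 of them and did not pass when CE428 (adjusted p = 0.0685), CE429 (0.07), CE433 (0.101), CE467 (0.0526) or CE468 (0.0564) was left out, without tumour 2 of CE429 (0.103), without the tumour of highest cell cycle level of each code (0.0744), with only the 6 codes in the fit (0.0501), with sex as a covariate (0.122) and against a minimum log2 fold change of 1 (0.605). In the separate sgSetd2 codes Asns stood at 32.7 CPM in Variant 1 and 22.3 CPM in Variant 3, without overlap of codes but without passing (-0.56, adjusted p = 0.28). The difference between the sgNeo and sgSetd2 values did not pass either (interaction 1.21, adjusted p = 0.448).

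The bases before the transcription start of Asns and of 2 relatives are shown because the amino acid stress response acts through a short element, TGATGNAA, which was searched in the 250 bases before each start on both strands. Sequences are from RefSeq on GRCm38.p6, 5′ to 3′ on the strand of the gene, and capitals mark the letters of a match, read on either strand. Asns is chr6:7693210-7693459 on the minus strand, Chac1 is chr2:119350992-119351241 on the plus strand, and Slc7a11 is chr3:50443614-50443863 on the minus strand.
Asns: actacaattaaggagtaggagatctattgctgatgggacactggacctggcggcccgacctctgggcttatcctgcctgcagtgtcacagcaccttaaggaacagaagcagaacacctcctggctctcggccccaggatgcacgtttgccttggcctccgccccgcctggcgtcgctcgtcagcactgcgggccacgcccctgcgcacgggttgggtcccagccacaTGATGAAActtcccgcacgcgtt
Chac1: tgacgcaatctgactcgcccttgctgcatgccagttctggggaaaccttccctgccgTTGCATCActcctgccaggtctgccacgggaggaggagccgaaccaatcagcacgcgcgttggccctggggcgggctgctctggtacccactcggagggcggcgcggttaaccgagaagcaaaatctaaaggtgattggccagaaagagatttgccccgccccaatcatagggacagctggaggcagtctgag
Slc7a11: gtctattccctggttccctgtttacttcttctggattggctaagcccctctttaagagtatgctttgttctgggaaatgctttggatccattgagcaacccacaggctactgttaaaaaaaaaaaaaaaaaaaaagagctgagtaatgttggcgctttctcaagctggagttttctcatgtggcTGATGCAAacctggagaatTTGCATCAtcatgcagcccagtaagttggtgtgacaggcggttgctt
Starts are those of RefSeq. For Asns that start lies inside the gene span given above, which is GENCODE's and reaches further upstream. The match begins 23 bases before the RefSeq start in Asns and 193 bases before it in Chac1, and Slc7a11 holds matches that begin 66 and 47 bases before it. Of the 19 genes in the list of unfolded protein and amino acid stress response, 5 held the letters (these and Atf3 and Herpud1), against 3.45% of 32851 promoters. That share counts every promoter entry, whereas each list gene was read at its first entry only. The list was made of genes known for these responses, so the count is no result about these tumours. A match is a description of the letters and not a site shown to be used in these tumours.

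The rest of the amino acid stress list was read beside Asns. All 19 genes were measured. Asns alone passed after adjustment, 7 members including it were lower and 1 higher at an unadjusted p under 0.05, and the median was -0.38 against -0.02 over all genes. Over all genes tested, 6.33% were lower and 4.06% higher at that unadjusted threshold. Phgdh, the first enzyme of serine synthesis, stood at 48.6, 26 and 22.9 CPM in the Variant 1 codes and at 13.4, 9.60 and 8.84 CPM in the Variant 3 codes (-1.62, SE 0.28, adjusted p = 0.138). Its codes did not overlap, but its tumours did, from 6.36 to 83.5 CPM in Variant 1 and from 4.1 to 27 CPM in Variant 3. Slc3a2, the heavy chain of several amino acid transporters, stood at 228, 137 and 174 CPM against 129, 124 and 108 CPM (-0.58, adjusted p = 0.346). Chac1, which degrades glutathione, stood at 3.04 against 1.07 CPM (-1.51, adjusted p = 0.351).

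Atf4 itself stood at 176, 152 and 148 CPM in Variant 1 and at 119, 130 and 119 CPM in Variant 3 (-0.37, adjusted p = 0.417). The endoplasmic reticulum chaperone genes Hspa5 (-0.52, adjusted p = 0.386) and Dnajb9 (-0.53, adjusted p = 0.38) had values of the same sign. Psat1, the next enzyme of serine synthesis after Phgdh, overlapped between the variants (61.9 against 49.9 CPM, -0.31, adjusted p = 0.784), as did the mitochondrial folate enzyme gene Mthfd2 (-0.57, adjusted p = 0.519). Slc7a11, the cystine transporter, had the opposite sign, 21.6, 13.9 and 9.50 CPM against 24.1, 32.6 and 50.9 CPM (1.26, adjusted p = 0.402). The list was thus not uniform. Its median ran from -0.54 to -0.19 over the 36 alternatives, and was nearest to 0 when the collagen-high tumours were omitted. In the sgSetd2 codes the median was -0.11.

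**Figure D1:**
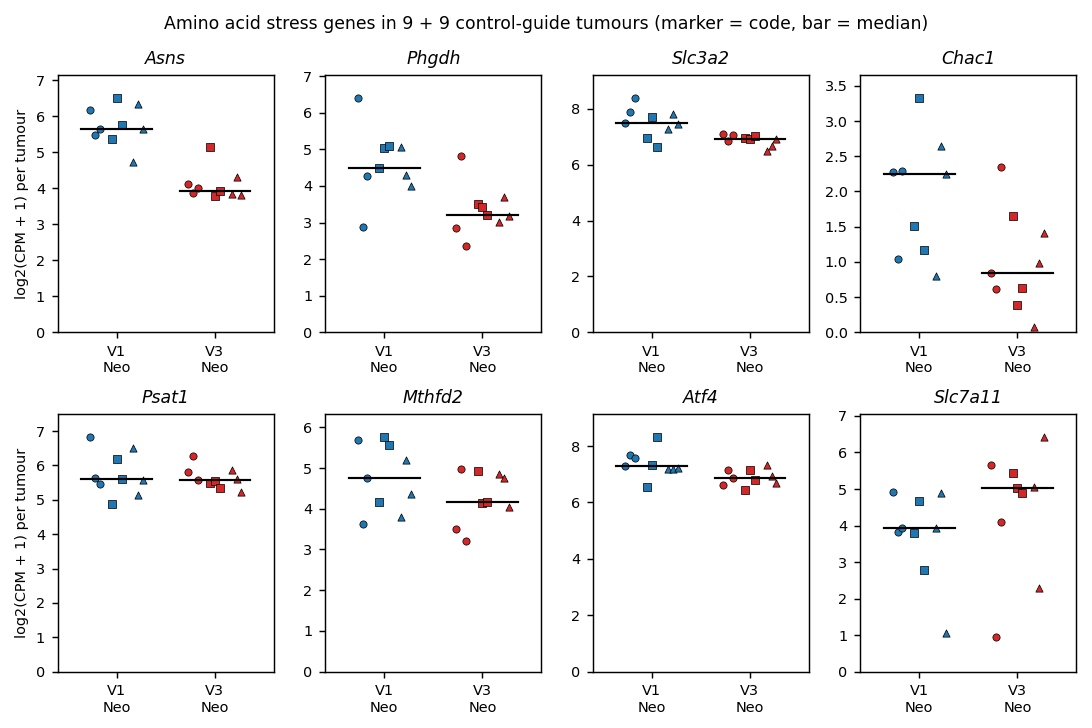
Level of 8 amino acid stress genes in each control-guide tumour, as log2(CPM + 1), for Variant 1 Neo (blue, 9 tumours) and Variant 3 Neo (red, 9 tumours). Marker shape gives the code and the bar the median. Asns separates all but 1 Variant 3 tumour from Variant 1, while Psat1 and Mthfd2 overlap and Slc7a11 tends the other way.

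No gene passed as higher in Variant 3. The genes of smallest p in that direction, among genes whose Variant 3 mean reached 5 CPM, are therefore given as values. Below that level Pnck, a calcium/calmodulin-dependent kinase gene on the X chromosome, had a smaller p, with 0.369, 0.21 and 0.208 CPM in the Variant 1 codes and 2.79, 3.36 and 3.6 CPM in the Variant 3 codes (3.63, SE 0.47, adjusted p = 0.0677). Vopp1 stood at 6.59, 4.76 and 4.15 CPM in Variant 1 codes and at 14.6, 20.9 and 21.2 CPM in Variant 3 codes (1.87, SE 0.28, adjusted p = 0.123). Cfap52, a gene of cilia and flagella, stood at 5.6, 7.39 and 3.83 CPM against 20.6, 22.9 and 20.3 CPM (1.93, SE 0.30, adjusted p = 0.129). Both were more than 3 times as high in the Variant 3 codes, with no overlap. In the sgSetd2 codes Vopp1 had a value of 0.28 (adjusted p = 0.77) and Cfap52 one of -1.44 (adjusted p = 0.117), the opposite sign.

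S100a1 and S100a16, genes of calcium-binding EF-hand proteins that both lie on chromosome 3, had smaller and tighter values. S100a1 stood at 126, 146 and 129 CPM against 223, 191 and 234 CPM (0.69, SE 0.11, adjusted p = 0.138). S100a16 stood at 89.8, 94.8 and 81.3 CPM against 146, 139 and 129 CPM (0.64, SE 0.11, adjusted p = 0.138). Both were also higher without overlap in the sgSetd2 codes (0.43 and 0.49). Lamtor4, a subunit of the Ragulator complex that anchors mTORC1 at the lysosome, stood at 33.7 against 59.9 CPM (0.83, adjusted p = 0.148). Rras, a small GTPase gene, stood at 40.5 against 63.5 CPM (0.65, adjusted p = 0.176), and Dpep2, a membrane dipeptidase gene, at 42.6 against 94.6 CPM (1.15, adjusted p = 0.213). Mlana, a melanosome protein gene, stood at 6.85 against 16.7 CPM (1.29, adjusted p = 0.138). Over all genes the Variant 3 codes lay wholly above the Variant 1 codes in 6.83% and wholly below in 8.21%, so separation of the codes by itself is common.

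Separation of all 9 from all 9 tumours was rare, at 0.035% of genes (6 above and 1 below). Of these 7 genes, 4 reached a mean of 5 CPM in the higher group, and they were named after their values were seen. Cd177 encodes a surface glycoprotein known from neutrophils. It stood at 21 to 415 CPM (median 91.6) in the Variant 1 tumours and at 424 to 2270 CPM (median 1000) in the Variant 3 tumours. This difference did not pass (2.75, SE 0.73, adjusted p = 0.292). The Variant 1 codes spread from 53.2 to 288 CPM. The neutrophil marker S100a8 did not exceed 0.315 CPM in any of the 18 tumours. Another neutrophil gene, Cxcr2, reached 1.62 CPM in Variant 1 and 4 CPM in Variant 3, the latter in tumour 1 of CE428, where Cd177 was highest. The part of neutrophils in the Cd177 value was not tested. Kdelr1, the receptor that returns proteins to the endoplasmic reticulum, ran from 56.8 to 85.7 CPM against 87.9 to 109 CPM (0.33, adjusted p = 0.453). Ccdc61 ran from 6.06 to 12.7 CPM against 13.4 to 26.1 CPM (0.70, adjusted p = 0.292). Axin1, the scaffold of the β-catenin destruction complex, ran from 41.2 to 49.7 CPM in Variant 1 and from 25.9 to 40.7 CPM in Variant 3 (-0.46, adjusted p = 0.33).

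**Figure D2:**
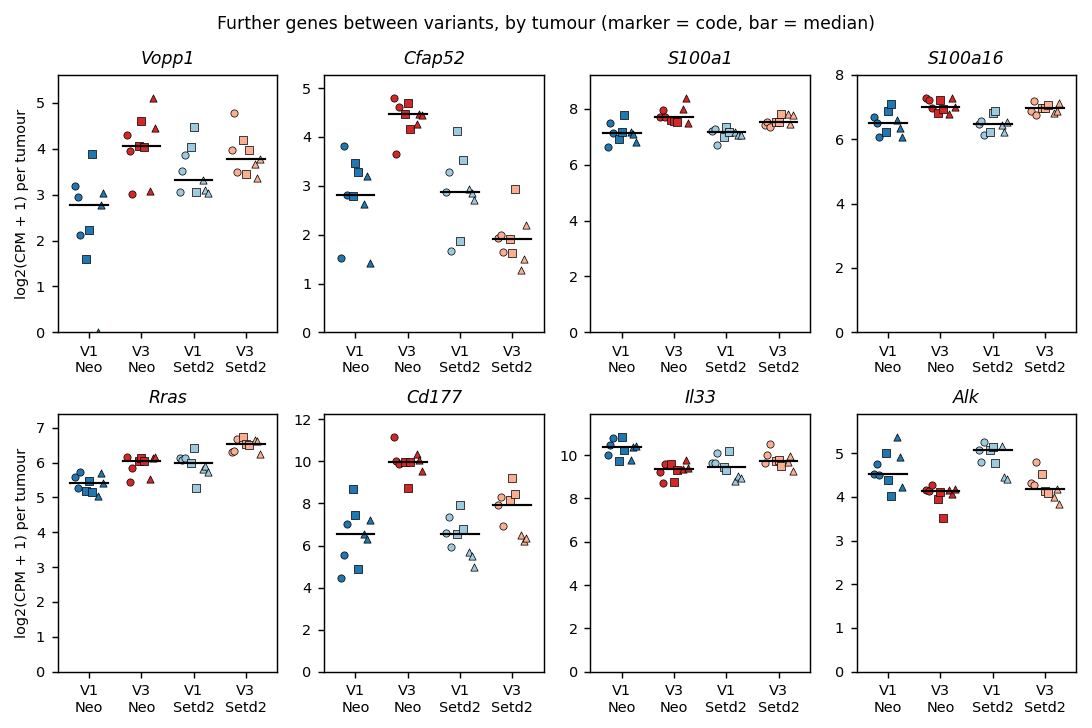
Level of 8 genes in each tumour, as log2(CPM + 1), in all 4 groups (9 tumours each, marker shape gives the code, bar the median). Cd177 separates the control-guide tumours of the variants, from 21 to 415 CPM against 424 to 2270 CPM, and Cfap52 has opposite orders of the variants under the 2 guides.

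The genes of smallest p with lower values in Variant 3, Asns aside, did not pass and are given as values. Itih4, a heavy chain of the inter-alpha-trypsin inhibitor family best known as a plasma protein from liver, stood at 638, 619 and 1160 CPM in the Variant 1 codes and at 147, 192 and 228 CPM in the Variant 3 codes (-2.10, SE 0.29, adjusted p = 0.0885). By tumour it ran from 33.4 to 1450 CPM against 27.9 to 384 CPM, and the low Variant 1 value belongs to tumour 4 of CE468, one of those with raised Col1a1. Sytl2, which encodes a Rab27 effector of vesicle docking, stood at 18.8, 14.4 and 19.9 CPM against 5.11, 7.71 and 6.06 CPM (-1.49, SE 0.23, adjusted p = 0.123).

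Hc, the gene of complement component C5, stood at 1270, 878 and 1540 CPM against 527, 424 and 382 CPM (-1.47, SE 0.26, adjusted p = 0.149). Adora2b, an adenosine receptor gene, stood at 70.8 against 35.2 CPM (-1.01, adjusted p = 0.138). Mfsd2a, a transporter of lysophospholipids, stood at 102 against 46.2 CPM (-1.15, adjusted p = 0.149). Mphosph9, a centriole protein gene, stood at 11.3 against 4.31 CPM (-1.40, adjusted p = 0.138). The codes of all of these were separated, their tumours overlapped, and none passed. By tumour, Hc ran from 133 to 3300 CPM in Variant 1 and from 73.2 to 1010 CPM in Variant 3. Adora2b ran from 10.2 to 152 CPM against 3.37 to 93.7 CPM, and Mfsd2a from 33.9 to 279 CPM against 8.76 to 103 CPM.

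When the 4 tumours of the series with Col1a1 above 10 CPM were left out, a setting added after seeing the data, 14 genes passed, 6 higher and 8 lower, in place of 1. Asns (-1.65, adjusted p = 0.00103), Itih4 (-2.42, adjusted p = 0.00103), Sytl2 (-1.80, adjusted p = 0.0451), Anpep (-2, adjusted p = 0.0186), Enpep (-1.35, adjusted p = 0.0372), Adora2b (-1.38, adjusted p = 0.0317) and Oat (-1.08, adjusted p = 0.0416), the ornithine aminotransferase gene, were among the genes that fell there. Vopp1 (2.28), S100a16 (0.76), Dnm1 (1.52), Mfge8 (1.55), 2200002D01Rik (1.62) and Gbp7 rose there, with adjusted p from 0.0186 to 0.0451. Gbp7 belongs to a family of near-identical copies, and its mean level was below 3 CPM in both groups.

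The same variant difference was measured in the sgSetd2 tumours, 9 of each variant under 6 codes of which none enters the sgNeo comparison. There 26 genes passed, 0.13% of those tested, 1 higher and 25 lower in Variant 3. In the sgNeo codes 24 of the 26 had the same sign. The codes of 17 were separated in that direction, read against 8.21% below and 6.83% above over all genes. An unadjusted p under 0.05 with the same sign was found for 17, read against the 6.33% lower and 4.06% higher of all genes given above. Across all genes 60.1% had the same sign in both sets. Of the 2080 genes at an unadjusted p under 0.05 in sgNeo, 1508 (72.5%) had the same sign in sgSetd2, and of the 75 at an unadjusted p under 0.001, 58 (77.3%) did. Spearman's rho of the log2 fold changes across genes, which are not independent of each other, was 0.22, and 0.34 over the 10267 genes with at least 5 CPM.

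Several of the 26 were genes already described. Sytl2 fell in the sgSetd2 codes from 27.2 ± 6.97 to 2.61 ± 0.194 CPM (SD, n = 3; -3.39, SE 0.24, adjusted p = 0.000297). Itih4 fell from 1550 to 301 CPM (-2.36, adjusted p = 0.0115) and Hc from 1810 to 477 CPM (-1.92, adjusted p = 0.0205). For Itih4 and Hc the sgNeo values of -2.10 and -1.47 were of similar size. For Sytl2 the sgNeo value of -1.49 was smaller, and the interaction did not pass (-1.89, adjusted p = 0.385).

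Of the 26, 3 encode membrane peptidases that trim peptide hormones at the cell surface, chosen here after their values were seen. Anpep, aminopeptidase N, stood in sgNeo at 17.9, 19.1 and 26 CPM in Variant 1 and at 8.63, 6.86 and 5.07 CPM in Variant 3 (-1.62, adjusted p = 0.138), and fell in sgSetd2 from 73 to 16 CPM (-2.19, adjusted p = 0.013). Enpep, aminopeptidase A, stood in sgNeo at 261, 279 and 428 CPM against 178, 136 and 161 CPM (-1.03, adjusted p = 0.251), and fell in sgSetd2 from 418 to 142 CPM (-1.56, adjusted p = 0.0285). Mme, neprilysin, stood in sgNeo at 150, 117 and 192 CPM against 89.3, 92.7 and 44.6 CPM (-1.02, adjusted p = 0.324), and fell in sgSetd2 from 108 to 15.6 CPM (-2.78, adjusted p = 0.0099). The sgNeo codes of all 3 genes were separated. By tumour they overlapped, and for Mme both sgNeo groups included a tumour at 0.

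S100g, the X-linked gene of the calcium-binding protein calbindin-D9k, stood at 113 against 43.6 CPM in sgNeo (-1.37, adjusted p = 0.178) and fell in sgSetd2 (-1.73, adjusted p = 0.0285). The sgNeo code CE428, not called male by Ddx3y, stood at 43.9 CPM and the male codes CE429 and CE433 at 56.9 and 30.2 CPM. Variant and sex are partly confounded in sgNeo, and the part of sex in the S100g value was not tested beyond the fit with sex as a covariate. Kcnj2, an inward rectifier potassium channel gene, stood at 50.5 against 23.4 CPM in sgNeo (-1.11, adjusted p = 0.284) and fell in sgSetd2 (-2.50, adjusted p = 0.0099). By tumour Kcnj2 ran from 0.015 to 171 CPM in Variant 1 Neo and from 0 to 110 CPM in Variant 3 Neo. Gpam, which starts glycerolipid synthesis, had values of -1.10 in sgNeo and -2.97 in sgSetd2 (adjusted p = 0.0099). Cox6a2 (-2.14 in sgNeo and -4.09 in sgSetd2) and the lactate dehydrogenase gene Ldhb (-0.54 and -1.11) passed in sgSetd2 too (adjusted p = 0.0285 and 0.0289). In sgNeo neither passed (adjusted p = 0.292 and 0.346). Dnm1, the dynamin gene that cuts vesicles from the membrane, was the gene that rose in sgSetd2 (1.84, adjusted p = 0.0282), and in sgNeo it stood at 3.58, 7.22 and 5.38 CPM against 14.6, 17.2 and 13.4 CPM (1.48, adjusted p = 0.165).

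The 2 genes without the same sign were Adora1, an adenosine receptor gene (37.6 against 38.9 CPM in sgNeo, 20.8 against 2.3 CPM in sgSetd2), and Slco3a1, an organic anion transporter gene (6.61 against 9.84 CPM in sgNeo, 28.6 against 4.34 CPM in sgSetd2). Their interactions did not pass (adjusted p = 0.385 for both). Ros1, a receptor kinase gene related to Alk, stood at 162 against 130 CPM in sgNeo with overlapping codes (-0.32) and fell in sgSetd2 (-1.76, adjusted p = 0.0099). No gene passed the interaction test of edgeR (0 of 20009, 0%), with 1200 at an unadjusted p under 0.05 and a smallest adjusted p of 0.0982. DESeq2 on the same sums called 114, edgeR on single tumours 8 and limma on mean log2-CPM 0. The gene of that smallest value was Cfap52 (-3.36).

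**Figure D3:**
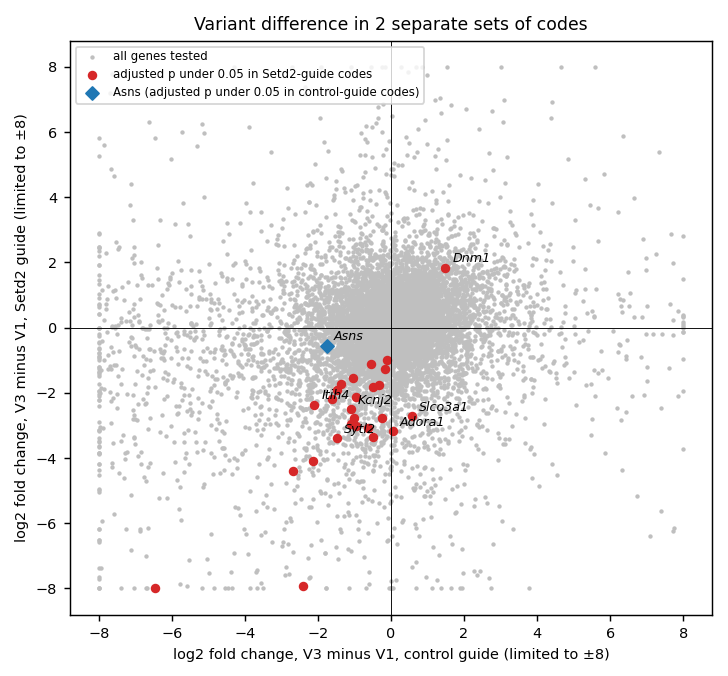
Log2 fold change of Variant 3 minus Variant 1 in the control-guide codes (x axis) and in the Setd2-guide codes (y axis), values beyond 8 drawn at 8. Grey points are all 20009 genes, red points the 26 that passed in the Setd2-guide codes and the blue diamond Asns. Red points lie in the quadrants of equal sign for 24 of 26.

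**Figure D4:**
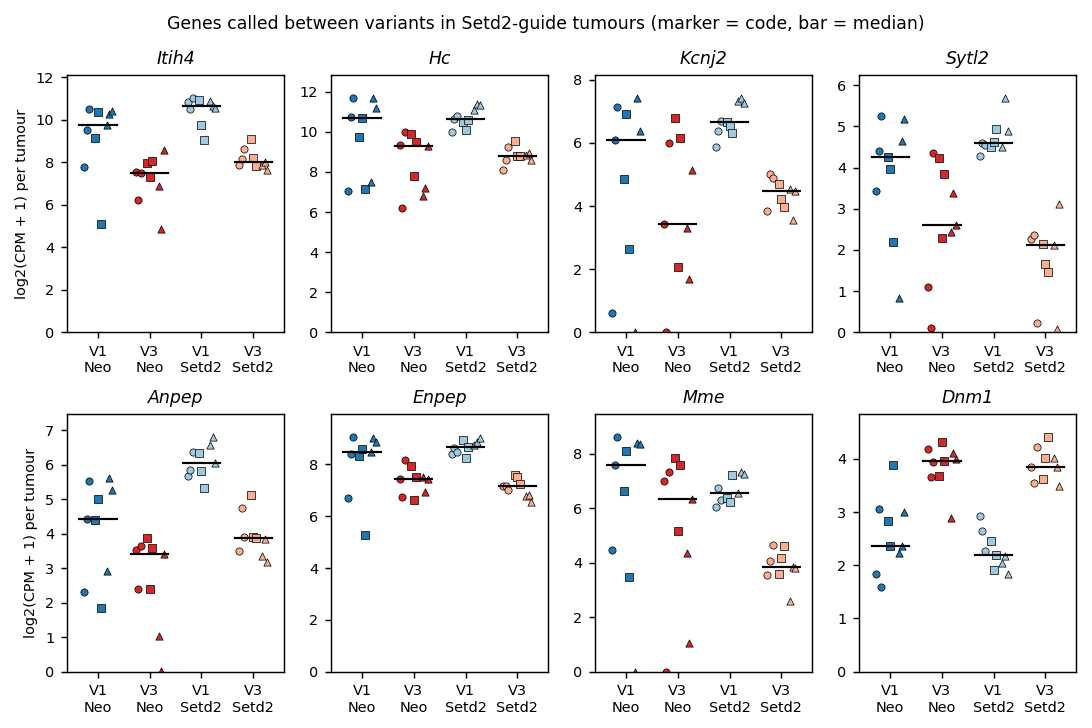
Level of 8 genes in each tumour, as log2(CPM + 1), in all 4 groups (9 tumours each, marker shape gives the code, bar the median). The genes shown passed in the Setd2-guide codes, 7 lower and Dnm1 higher, and their control-guide medians have the same order, with overlap of tumours.

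Averaging the variant difference over both guides, a contrast added after seeing the data that uses all 12 codes, gave 60 genes (0.3%), 18 higher and 42 lower. The sgNeo codes enter this contrast, so it is no separate support for their values. The S100 genes S100a1 and S100a16 rose by 0.56 each on the log2 scale (adjusted p = 0.0155 and 0.0132), Rras by 0.60 (adjusted p = 0.0155), Lamtor4 by 0.61 (adjusted p = 0.0353) and Vopp1 by 1.08 (adjusted p = 0.0485). Ctsd, the lysosomal protease cathepsin D, rose by 1.16 (adjusted p = 0.0259), with 456 against 859 CPM in sgNeo. Pdpn, a marker of alveolar type 1 (AT1) cells, rose by 0.76 (adjusted p = 0.0353), with 44.2, 38.0 and 60.9 CPM against 84.0, 102 and 83.6 CPM in the sgNeo codes. Oat fell by 0.82 (adjusted p = 0.0352), complement C6 by 1.39 (adjusted p = 0.0221), Gem, a small GTPase gene, by 2.04 (adjusted p = 0.0485) and Nkd1, a feedback inhibitor of WNT signalling, by 1.99 (adjusted p = 0.0485). Cbr2, a carbonyl reductase of airway cells, fell by 5.42 (adjusted p = 0.0155), with 121, 65.1 and 425 CPM against 5.95, 21.3 and 13.3 CPM in the sgNeo codes. The club cell marker Scgb1a1 ran from 1.99 to 170 CPM in the Variant 1 Neo tumours and from 1.34 to 7.92 CPM in Variant 3 Neo; its part in the Cbr2 value was not tested. The count was 16 with sex as a covariate and ran from 18, without CE483, to 124, without CE454; it was 25 without CE428, 25 without CE433, 30 without CE450, 33 without CE467, 37 without CE472 and 34 without CE475.

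Reads of the fusion may be counted under Alk and Eml4, and counts per gene cannot tell fusion and native transcripts apart. Alk (chromosome 17, 71868972 to 72604627) stood at 22.8, 25.5 and 28.5 CPM in the Variant 1 codes and at 17.2, 15.0 and 16.6 CPM in the Variant 3 codes (-0.65, SE 0.16, adjusted p = 0.277; exact two-sided permutation p = 0.1). In the averaged contrast it fell by 0.67 (adjusted p = 0.0352). Eml4 stood at 45.7, 43.3 and 43.6 CPM against 37.9, 35.2 and 30.4 CPM (-0.36, adjusted p = 0.407; exact permutation p = 0.1). Setd2, not targeted in these tumours, stood at 71.0, 53.5 and 78.5 CPM against 52.9, 65.7 and 45.2 CPM, overlapping (-0.31, adjusted p = 0.669; exact permutation p = 0.2). Of 53 measured genes between Alk and Eml4 on chromosome 17, none passed, 1 was higher and 5 lower at an unadjusted p under 0.05, and the median was -0.14. The shares over all genes at that threshold were 4.06% higher and 6.33% lower. Ltk, the closest relative of Alk, stood at 5.51 against 2.02 CPM (-1.45, adjusted p = 0.346).

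The lists of signalling and stress genes held no member that passed apart from Asns. Of 19 MAPK output and feedback genes, which report ERK signalling below ALK, 2 were higher and 1 lower at an unadjusted p under 0.05, with a median of -0.03. Over all genes tested 4.06% were higher and 6.33% lower at that threshold, and the list counts here are read beside those shares. Of 15 JAK-STAT3 output genes 0 were higher and 5 lower (median -0.41, and -0.03 in sgSetd2). Among the 5 was the feedback inhibitor gene Socs3, at 283, 310 and 299 CPM against 201, 228 and 217 CPM (-0.47, SE 0.11, adjusted p = 0.277). By tumour Socs3 overlapped in sgNeo, from 93.9 to 592 CPM in Variant 1 and from 167 to 266 CPM in Variant 3. In the sgSetd2 tumours Socs3 overlapped too, from 379 to 652 CPM in Variant 1 and from 371 to 564 CPM in Variant 3. Of 16 NF-kB and cytokine genes 0 were higher and 5 lower (median -0.57). That median ran from -0.84 to -0.1 over the 36 alternatives, and it was -0.1 without CE467, -0.34 without tumour 1 of CE467 and -0.23 without the collagen-high tumours. Il33, an epithelial alarmin gene, stood at 1310, 1130 and 1170 CPM against 575, 523 and 726 CPM (-0.98, SE 0.22, adjusted p = 0.267), and its tumours ran from 856 to 1810 CPM against 413 to 878 CPM. Il6 stood at 17.9 against 3.25 CPM (-2.46, adjusted p = 0.326) and Nfkbiz at 173 against 106 CPM (-0.70, adjusted p = 0.431). For Il33 the sgSetd2 value was 0.34 (adjusted p = 0.645).

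Of 22 genes of p53 and its targets 0 were higher and 6 lower at an unadjusted p under 0.05 (median -0.29, and -0.52 in sgSetd2), beside 4.06% higher and 6.33% lower over all genes. Mdm2, the ubiquitin ligase that restrains p53, stood at 157, 127 and 110 CPM against 82.8, 96.3 and 98.8 CPM (-0.51, adjusted p = 0.341). Ccng1 stood at 421 against 257 CPM (-0.71, adjusted p = 0.399), the cell cycle inhibitor gene Cdkn1a at 439 against 242 CPM with overlapping codes (-0.86, adjusted p = 0.406) and Plk2 at 300 against 160 CPM (-0.91, adjusted p = 0.422). Gadd45b, a stress gene, stood at 65.3, 69.4 and 60.8 CPM against 23.6, 35.2 and 22.1 CPM (-1.27, SE 0.25, adjusted p = 0.22). The p53 list median ran from -0.47 to -0.14 over the 36 alternatives.

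Of 27 cell cycle genes 26 had lower values in Variant 3, 2 of them at an unadjusted p under 0.05 (6.33% over all genes), and the median was -0.51. Bub1, a spindle checkpoint kinase gene, stood at 20.6 against 6.53 CPM (-1.66, adjusted p = 0.284). The mean log2(CPM + 1) of the list overlapped by tumour, 2.07 to 5.16 (median 3.71) in Variant 1 and 2.64 to 4.91 (median 3.55) in Variant 3. The median log2 fold change of the list ran from -0.84 to 0.05 over the 36 alternatives. It was -0.13 with limma on mean log2-CPM and -0.22 with edgeR on single tumours. Without the tumour of highest level of each code the median was 0.05, and in the sgSetd2 codes it was 0.94. Those tumours were chosen on the list itself, so that value is no independent check of its direction. They stood at 5.08, 4.66 and 5.16 in Variant 1 and at 4.91, 3.55 and 4.73 in Variant 3.

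Lists with higher medians had small values, and 4.06% of all genes were higher and 6.33% lower at an unadjusted p under 0.05. Of 25 ribosomal protein genes 24 were higher in sign and 1 at an unadjusted p under 0.05 (median 0.22, 0.05 to 0.32 over the alternatives). Of 27 interferon response genes 3 were higher and 0 lower at that threshold (median 0.24), with Gbp2 at 1.16 against 7.88 CPM (2.77, adjusted p = 0.251). The sign of that median was not kept, at -0.18 without the tumour of highest cell cycle level of each code, -0.16 without CE429, -0.08 without tumour 2 of CE429 alone and -0.1 with limma. Of 18 NRF2 targets, genes of antioxidant defence, 3 were higher and 0 lower (median 0.26), with the glutathione transferase gene Gsta4 at 196 against 322 CPM (0.72, adjusted p = 0.356) and Slc7a11 as above.

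Of 15 AT1 genes 3 were higher and 1 lower at an unadjusted p under 0.05, a threshold that 4.06% and 6.33% of all genes passed in these directions. The list's median was 0.28, and it had the opposite sign in sgSetd2 (-0.3). Pdpn had the smallest p of the list (0.91, adjusted p = 0.22), and Ager stood at 1080 against 1430 CPM (0.41, adjusted p = 0.403). Of 17 AT2 genes 3 were higher and 2 lower (median -0.11). The surfactant protein genes Sftpc and Sftpb had values of 0.43 (adjusted p = 0.465) and 0.68 (adjusted p = 0.391). By tumour Sftpc ran from 21100 to 160000 CPM in Variant 1 and from 96500 to 150000 CPM in Variant 3, so the spread lay on the Variant 1 side. Of 22 cholesterol synthesis genes 0 were higher and 4 lower (median -0.15, and 0.37 in sgSetd2), with squalene epoxidase, Sqle, at 54.4, 63.0 and 62.8 CPM against 39.1, 41.3 and 41.7 CPM (-0.56, adjusted p = 0.345). Of 16 receptor tyrosine kinase genes 1 was higher and 4 lower (median -0.28). Met, the hepatocyte growth factor receptor gene, stood at 213, 202 and 268 CPM against 152, 159 and 135 CPM (-0.61, adjusted p = 0.346), and Igf1r at 8.86 against 21.2 CPM (1.26, adjusted p = 0.471).

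Of 12 fibroblast, endothelial and mesothelial genes 0 were higher and 2 lower, beside 4.06% and 6.33% over all genes (median -2.64), the list in which the tumours with raised Col1a1 stand apart. Its mean log2(CPM + 1) ran from 0.22 to 4.03 in Variant 1 Neo and from 0.39 to 1.27 in Variant 3 Neo. Of 14 club and ciliated cell genes none was higher or lower at that threshold (median -0.68), with 1.41 to 2.86 against 1.23 to 1.77 by tumour. In sorted bulk samples fewer cells of a type and less RNA per cell cannot be told apart. The part of these cells in the differences above was not tested beyond the setting without the collagen-high tumours.

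**Figure D5:**
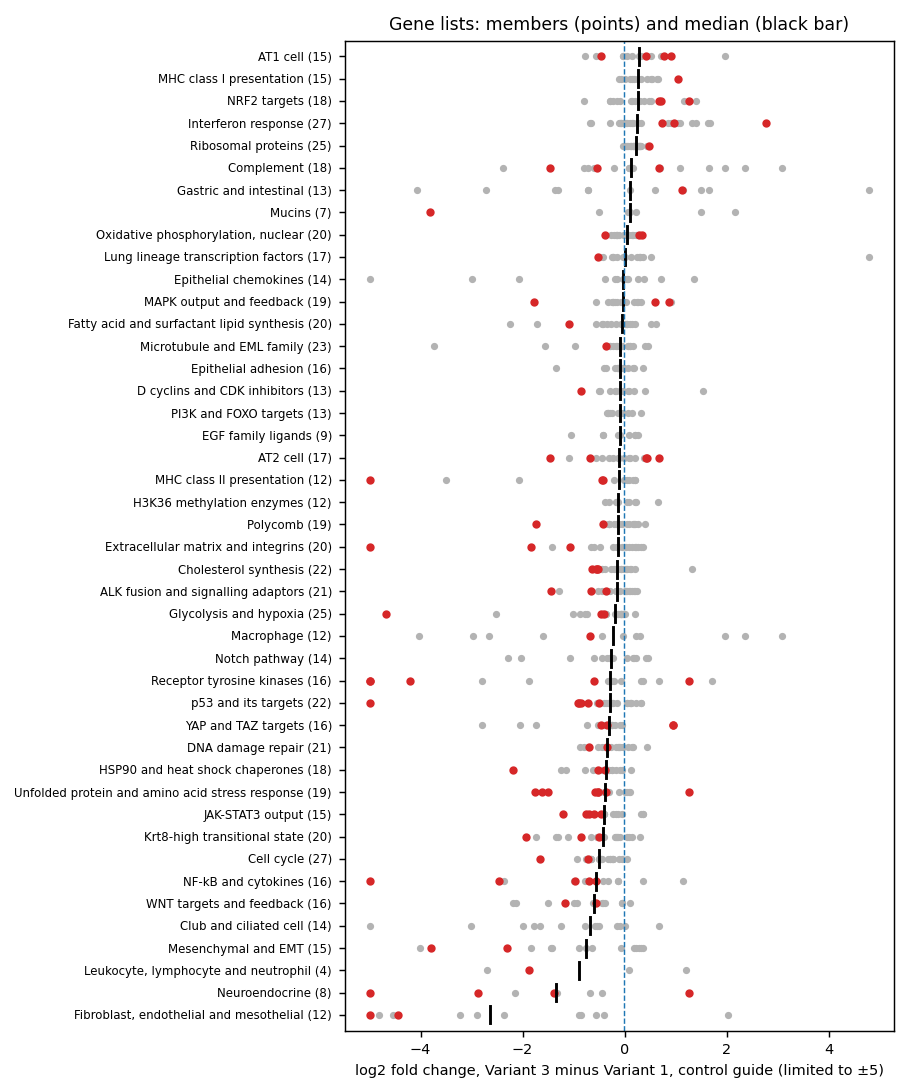
Log2 fold change of Variant 3 minus Variant 1 in the control-guide codes for the members of 44 gene lists (points, values beyond 5 drawn at 5, number measured in brackets). Red points have an unadjusted p under 0.05, the black bar is the list's median and the dashed line the median of all genes, -0.02. The stress list holds Asns, the gene that passed, and its median is -0.38.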

How the data were processed

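RNA was sequenced in 36 sorted tumour samples, and the authors deposited 1 table of raw counts per gene and tumour, a column each. Per the submitters' processing notes, STAR 2.5.3a, R 4.2 and DESeq2 1.38.3 were used. Not given in the sources used here are the build, the annotation, and how reads were counted and whether by strand, so antisense and overlapping genes and near-identical copies are uncertain. Of 49585 gene IDs, 49326 matched GENCODE mouse release M21 (GRCm38) and took symbols and coordinates from it. They may not be those of the authors' build.

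The 3 tumours of each code were added up, since the labels do not say that tumours of a code are independent. Depth was not equalized first, so deeper tumours weigh more in their code. What separates codes is also not stated, so p-values measure the spread between codes. All 12 codes, 3 in each of 4 groups, were fitted with edgeR 4.0.16 under R 4.3.3 (TMM scaling, low counts removed by filterByExpr on the groups, glmQLFit robust, glmQLFTest, Benjamini-Hochberg at 0.05), which left 20009 genes. SE was derived from F, as the size of the log2 fold change over its square root. Single-tumour CPM use TMM factors over the 36 tumours. Named genes are Alk, Eml4 and Setd2; up to 12 genes per direction of largest log2 fold change past the threshold, with at least 5 CPM in the higher group, separated codes and no predicted or clone name, and up to 6 with at least 50 CPM; where fewer than 5 passed, the 5 of smallest p; and up to 4 members of smallest p per list, of which the text gives some. Chosen after their values were seen were the genes that passed in sgSetd2, in the averaged contrast or without the collagen-high tumours, those with separated tumours, and Pnck, Atf4, Psat1, Mthfd2, Dnajb9, Gadd45b, Nfkbiz and Igf1r. Cxcr2 was also chosen after its values were seen. The comparison, the gene lists and the rules were chosen with earlier results of these data known. Lists got no set test. The fit was tested on simulated counts. Alternatives were RLE scaling, 2 other filters, DESeq2 1.42.0, limma 3.58.1 on the mean log2-CPM per code (prior count 2), edgeR on tumours, only the 6 codes, a covariate for sex (Ddx3y above 50 CPM) or for the mean of the cell cycle list, a minimum log2 fold change of 1, and leaving out codes, tumours, the tumour of highest cell cycle level per code, or those with Col1a1 above 10 CPM. A few genes are not reported here.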

Additional observations from a re-analysis of the deposited data

Results flagged for a closer look

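Tumours that stood apart from the other 8 of their group were looked for among the named genes, in 146 groups of 9 values. There were 14, or 9.59%, and 13 of them were high. The rule flags about 5% of groups by chance only if the values are normally distributed. It was applied to CPM without a log scale, for which that was not tested, and the genes were read in the same tumours. The share therefore cannot be read as an excess over chance. Asns stood at 34.6 CPM in tumour 1 of CE429 (next value 18.7) and Alk at 10.4 CPM in tumour 3 of CE429 (next 14.5), which was the low one. Tumour 1 of CE467, one of those with raised Col1a1, stood apart for Phgdh at 83.5 CPM (next 33.3) and for Hspa5 at 3090 CPM (next 2070). Tumour 4 of CE468, the other, stood apart for Lamtor4 at 66.3 CPM (next 44.2), Dnm1 at 13.8 CPM (next 7.32) and Gadd45b at 180 CPM (next 86.2). In CE428, tumour 2 stood apart for Phgdh at 27 CPM (next 11.9) and Ccdc61 at 26.1 CPM (next 17.2), tumour 1 for Cd177 at 2270 CPM (next 1290) and tumour 3 for Gem at 73.1 CPM (next 34.8). Tumour 2 of CE433 stood apart for S100a1 at 333 CPM (next 250) and Dpep2 at 160 CPM (next 98.8), and tumour 1 of CE468 for Cd177 at 415 CPM (next 177).

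Cfap52 had separated codes in both pairs of groups with opposite order, 1.93 on the log2 scale in sgNeo and -1.44 in sgSetd2. The test of the difference did not pass (interaction -3.36, adjusted p = 0.0982).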

How the results depend on the processing

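In sgNeo the count was also 1 with RLE scaling, limma on mean log2-CPM and the cell cycle covariate. It was 4 without a filter, 3 with at least 1 CPM in 3 codes, 140 with edgeR on the 36 tumours, 392 with DESeq2 and 14 without tumours with Col1a1 above 10 CPM. It was 0 with only the 6 codes, with sex as a covariate, without the tumour of highest cell cycle level of each code and with a minimum log2 fold change of 1, and 0 to 5 when a code or tumour was left out. Of the genes changed in sgNeo, 308 with DESeq2 and 117 on the tumours had the same sign in sgSetd2, and 0 with sex as a covariate. The sgSetd2 count of 26 was 485 with DESeq2, 68 with limma, 479 on the tumours, 2 with the cell cycle covariate and 1 to 50 with a code left out (1 without CE450, 2 without CE456, 7 without CE483 and 50 without CE454). The interaction count was 114 with DESeq2 and 8 on the tumours. The averaged count of 60 was 1007 with DESeq2, 1080 on the tumours, 16 with sex as a covariate and 18 to 124 with a code left out. Of the 26 genes, 17 had the same sign and an unadjusted p under 0.05 in sgNeo, 11 with limma, 10 against a minimum log2 fold change of 1 and 13 to 19 with a code or tumour left out. Ldhb turned to 0.03 without the tumours of highest cell cycle level, and Adora1, near 0, ran from -0.33 to 0.47 with a code or tumour left out. No other gene followed through the 36 alternatives changed sign. The cause of these moves was not tested. No paired analysis was possible because the codes, which are the replicates, share no number between groups. At 17.9 M counts or more per tumour, 1 CPM rests on several reads, and levels well below it on few.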
